A study of Mus musculus with 32 samples.

Results

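Muscle fibers that lose their nerve switch on a small set of regulatory genes, and 8 genes tied to that response were followed here in laser-captured regions of the tibialis anterior (TA), a leg muscle. The genes were Myog, Runx1, Dach2, Hdac4, Hdac9, Ncam1, Gadd45a and Rrad. Each was found by its name in the deposited tables, so that 8 of the 24952 genes listed there are described, and all 8 passed the filter on low counts. The libraries came from 4 groups of 8, named by age in months and by region, 10m xNMJ and 10m NMJ for adult mice and 30m xNMJ and 30m NMJ for old mice. NMJ regions were cut around neuromuscular junctions, made visible with α-bungarotoxin, which binds acetylcholine receptors, and xNMJ regions were cut away from them. All mice were wild-type C57BL/6JRj males that were caged singly and ate the AIN93M diet, for 2 to 3 months in the 10-month groups and for 16 months in the 30-month groups. Age and time on the diet cannot be told apart. Each library pooled many captured regions, and the labels name no animal for a library, so the spread between libraries may be partly technical. Total counts ran from 4026648 to 16516788 per library, and the median total was 6062117 for 10m xNMJ, 9605869 for 10m NMJ, 6790011 for 30m xNMJ and 9825357 for 30m NMJ.

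In innervated muscle, electrical activity holds down the transcription of genes such as Myog away from the synapse. When the nerve is lost, the histone deacetylase Hdac4 accumulates and represses Dach2, which itself represses Myog, and myogenin, the protein made from Myog, then activates acetylcholine receptor genes along the whole fiber. Dach2 is thus known to fall rather than rise in denervated muscle, and Hdac9, a related repressor that binds MEF2 factors, is also known as a brake on the response. Runx1 is a transcription factor that protects denervated fibers from wasting, Gadd45a is a nuclear stress protein that acts downstream of Hdac4, Ncam1 is an adhesion molecule that is confined to the synapse of innervated fibers and spreads after denervation, and Rrad is a small GTPase that restrains calcium channels. Runx1 is also made by blood cells, and Ncam1 by Schwann cells and muscle stem cells.

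The region labels were checked with genes that fibers express beneath the synapse. Chrne, the adult subunit of the acetylcholine receptor, had a median of 249 CPM in 10m NMJ, where CPM is the count relative to the library total after TMM scaling. Its median was 243 CPM in 30m NMJ, and 0 in both xNMJ groups. One library stood apart, 30m xNMJ replicate 5. It held 94.0 CPM of Chrne, whereas 6 of the other 7 libraries of its group held 0 and the remaining one 0.240 CPM. The same library held 109 CPM of the transcription factor Etv5, 443 CPM of the protein kinase A subunit Prkar1a, 17.5 CPM of Colq and 28.6 CPM of Ache, the last 2 being the collagen tail and the catalytic part of acetylcholinesterase. The highest values in the other 7 libraries were 14.7 CPM for Etv5, 53.1 CPM for Prkar1a, 2.55 CPM for Colq and 9.62 CPM for Ache. Dok7 (24.3 CPM) and Rapsn (4.07 CPM) were not set apart in this way, since the other libraries reached 24.1 and 21.2 CPM. Etv4 was at 0.266 CPM in replicate 5, which is at the floor of 3 counts, and at 0 in the other 7. Lrp4, the agrin receptor, ran the other way, with 718 CPM in this library and at least 2954 CPM in the rest. The insert size of replicate 5 was 130, the longest of the xNMJ libraries, whose others ran up to 109. The main results on 30m xNMJ are therefore also given without replicate 5.

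Myog (ENSMUSG00000026459, GRCm38 chromosome 1 from 134289989 to 134292548) encodes myogenin and was scarce in xNMJ. In 10m xNMJ it ran from 0 to 1.85 CPM with a median of 0, and 6 of the 8 libraries held no count. In 10m NMJ it ran from 0.377 to 7.23 CPM with a median of 1.61 CPM. The 30m xNMJ libraries ran from 0 to 1.68 CPM with a median of 0.194 CPM, and the 30m NMJ libraries from 1.02 to 14.7 CPM with a median of 2.63 CPM. NMJ and xNMJ libraries overlapped at both ages, and the highest values lay in 30m NMJ. Every library at or below 3 counts is near the limit of detection, which lay between 0.153 and 0.933 CPM, and 7 of the 8 10m xNMJ libraries and 6 of the 8 30m xNMJ libraries were at or below it for Myog. The stretch upstream of Myog (RefSeq start site, GRCm38.p6, plus strand, chr1:134289754-134289988) is shown because myogenin and related factors bind E-boxes, the letters CANNTG. Capitals mark the match, and a second one lies closer to the start, beyond the stretch shown.
Myog: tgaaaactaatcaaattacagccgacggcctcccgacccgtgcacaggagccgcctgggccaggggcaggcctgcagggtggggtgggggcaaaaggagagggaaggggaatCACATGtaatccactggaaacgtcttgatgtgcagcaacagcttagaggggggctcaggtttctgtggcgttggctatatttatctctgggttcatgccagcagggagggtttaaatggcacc

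Runx1 (ENSMUSG00000022952, chromosome 16 from 92601466 to 92826149, minus strand) was low in every 10m xNMJ library and spread widely in the other groups. It ran from 0.183 to 3.74 CPM in 10m xNMJ (median 1.20), from 1.12 to 17.0 CPM in 10m NMJ (median 6.31), from 0.620 to 28.0 CPM in 30m xNMJ (median 8.31) and from 1.79 to 22.8 CPM in 30m NMJ (median 11.2). In 30m xNMJ the libraries spread widely. Replicates 1, 3, 7, 6 and 5 held 28.0, 17.3, 14.4, 11.7 and 4.96 CPM, all above the highest 10m xNMJ library, and replicates 8, 2 and 4 held 3.57, 0.889 and 0.620 CPM. Gadd45a (ENSMUSG00000036390, chromosome 6 from 67035096 to 67037457, minus strand) was well expressed in all 32 libraries. It ran from 12.8 to 50.1 CPM in 10m xNMJ (median 23.1), from 8.53 to 33.3 CPM in 10m NMJ (median 18.7), from 17.8 to 99.1 CPM in 30m xNMJ (median 45.5) and from 10.4 to 54.3 CPM in 30m NMJ (median 27.4). All 4 groups overlapped, and replicates 1, 3 and 7 of 30m xNMJ held the highest values of that group, 99.1, 70.5 and 57.2 CPM. The upstream stretches of both genes, 1 of them the distal start site of Runx1, are shown because their levels were high in the same xNMJ libraries. E-boxes are again in capitals, another one of Runx1 lies beyond the stretch shown, and the positions are chr16:92826150-92826324 and chr6:67037458-67037657, both on the minus strand of GRCm38.p6.
Runx1: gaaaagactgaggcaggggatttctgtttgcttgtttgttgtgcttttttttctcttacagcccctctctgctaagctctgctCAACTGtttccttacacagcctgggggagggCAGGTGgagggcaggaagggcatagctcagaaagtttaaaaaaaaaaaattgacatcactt
Gadd45a: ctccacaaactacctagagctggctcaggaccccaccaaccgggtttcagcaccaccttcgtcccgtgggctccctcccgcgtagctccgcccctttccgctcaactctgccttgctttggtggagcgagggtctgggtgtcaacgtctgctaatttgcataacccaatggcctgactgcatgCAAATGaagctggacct

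RefSeq windows of 300 bases, 250 before and 50 after the start, were at hand for 6 of the 8 genes, and Ncam1 and Rrad had no entry. CANNTG, which reads the same on both strands, was found in the windows of Myog and Gadd45a, in both windows of Hdac9, in 1 of the 2 windows of Dach2 and in the distal window of Runx1. It was not found in the window of Hdac4, the proximal one of Runx1 or the other one of Dach2. It was found in 72.3% of all 32851 windows. CAGCTG, which is one form of CANNTG, was in both windows of Hdac9 and in 16.3% of all. The RUNX core TGTGGT, searched on both strands, was in the distal window of Runx1 itself, with 2 matches after the start, and in the Dach2 window without CANNTG, against 16.8% of all windows. No exact match to the MEF2 consensus, which 3.19% of all windows hold, was in any of the 6 genes' windows. Sites that depart from the consensus were not counted, so the search does not show that these windows lack MEF2 sites. These matches describe letters only.

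Rrad (ENSMUSG00000031880, chromosome 8 from 104628070 to 104631327, minus strand) was nearly absent from 10m xNMJ, where 5 of 8 libraries held no count and the highest held 1.5 CPM. All 8 libraries of 10m NMJ lay above that, from 3.38 to 108 CPM with a median of 15.0 CPM. The 30m NMJ libraries ran from 1.22 to 26.8 CPM with a median of 14.4 CPM. In 30m xNMJ the libraries fell into separate sets. Replicates 1, 7 and 3 held 49.7, 25.0 and 9.48 CPM, within the range of 10m NMJ, replicate 5 held 0.885 CPM, and replicates 2, 4, 6 and 8 held none. Ncam1 (ENSMUSG00000039542, chromosome 9 from 49502136 to 49798925, minus strand) followed the region instead. It ran from 1.96 to 9.98 CPM in 10m xNMJ (median 5.58), from 74.2 to 164 CPM in 10m NMJ (median 94.9), from 1.24 to 23.7 CPM in 30m xNMJ (median 5.84) and from 71.6 to 155 CPM in 30m NMJ (median 99.2). No xNMJ library reached any NMJ library, and the highest of them was 30m xNMJ replicate 5, with 13.5 CPM in the next one.

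Among the repressors, Hdac4 (ENSMUSG00000026313, chromosome 1 from 91928779 to 92195699, minus strand) had ranges that overlapped between all groups. It ran from 20.9 to 59.7 CPM in 10m xNMJ (median 28.9), from 23.1 to 51.9 CPM in 10m NMJ (median 31.6), from 14.7 to 118 CPM in 30m xNMJ (median 45.8) and from 32.4 to 64.6 CPM in 30m NMJ (median 41.3). Both the highest and the lowest of the 32 values were in 30m xNMJ, in replicates 3 and 4. Hdac9 (ENSMUSG00000004698, chromosome 12 from 34047580 to 34917095, minus strand) was scarce. Its median was 2.42 CPM for 10m xNMJ, 2.56 CPM for 10m NMJ, 3.96 CPM for 30m xNMJ and 4.86 CPM for 30m NMJ, with overlap between all of them. Its largest value, 32.3 CPM, was in 30m xNMJ replicate 2, in which Runx1 and Rrad were low, and 2 libraries of each xNMJ group held none. Dach2 (ENSMUSG00000025592, chromosome X from 113297510 to 113836386) had higher medians in xNMJ than in NMJ at both ages, as Gadd45a did. It ran from 6.12 to 37.5 CPM in 10m xNMJ (median 15.8), from 0.203 to 9.09 CPM in 10m NMJ (median 4.61), from 2.55 to 29.6 CPM in 30m xNMJ (median 14.4) and from 0.885 to 9.16 CPM in 30m NMJ (median 3.90). The regions overlapped at both ages.

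**Figure D1:**
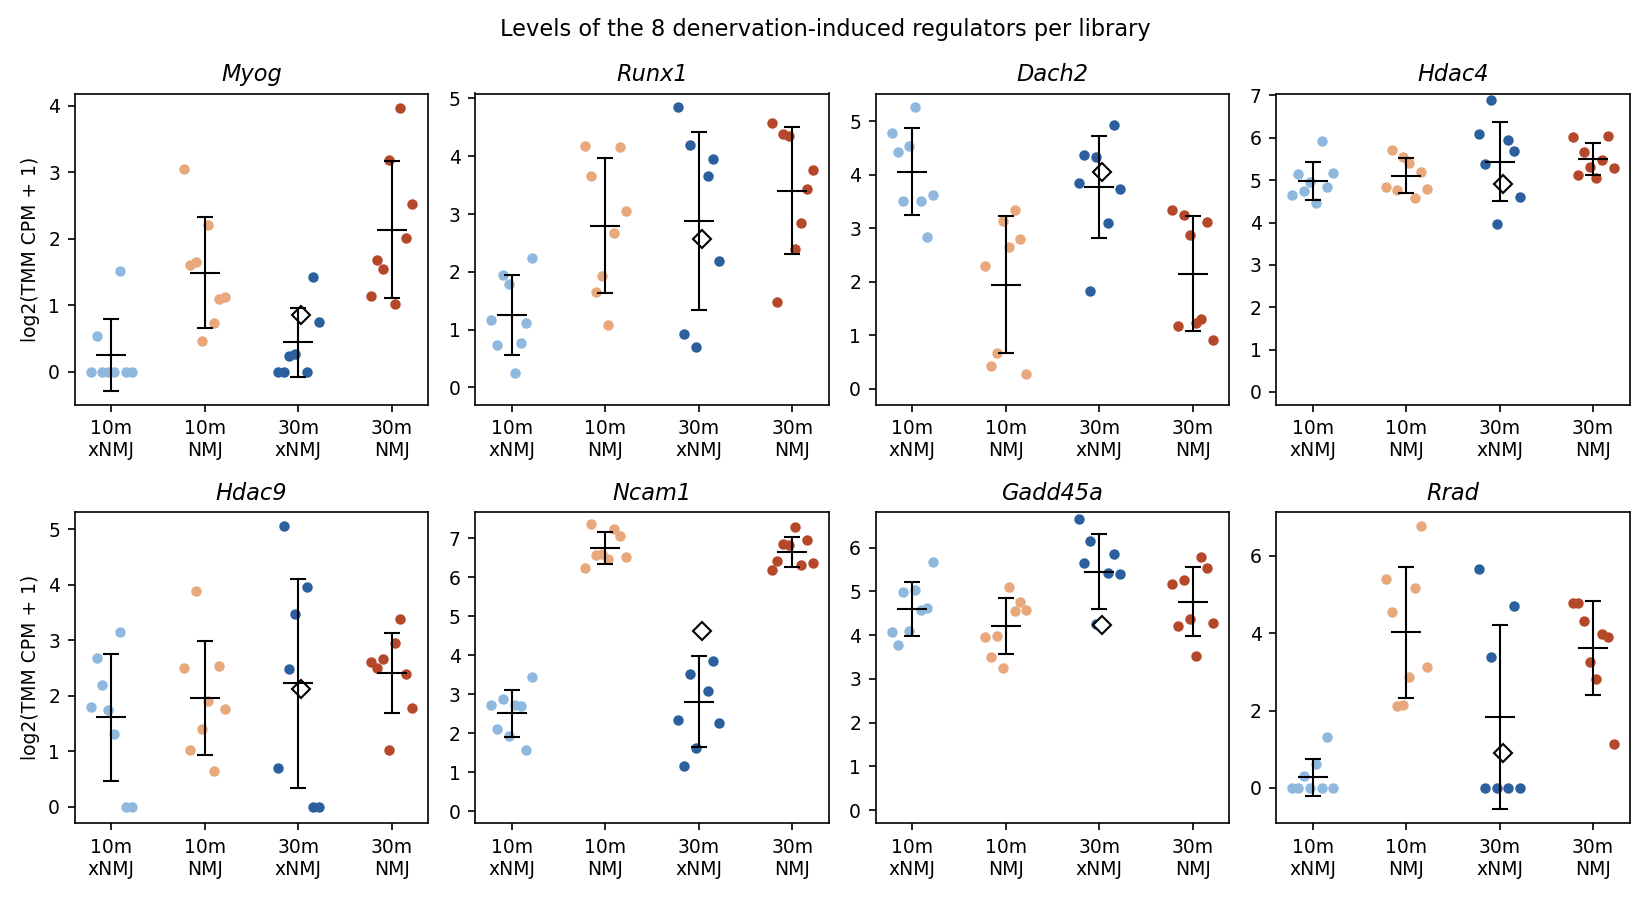
Levels of the 8 genes as log2(CPM + 1) with TMM scaling, 1 point per library and 8 libraries per group; horizontal marks are means and bars are SD, and the open diamond is 30m xNMJ replicate 5. Ncam1 separates NMJ from xNMJ at both ages, whereas Runx1 and Rrad spread widely within 30m xNMJ.

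Per transcript length, in TPM, a unit that divides by transcript length, the order of the genes differed between regions. In 10m xNMJ Gadd45a was highest, with a median of 22.7 TPM, followed by Hdac4 (5.18), Dach2 (4.97), Ncam1 (1.42), Hdac9 (0.729) and Runx1 (0.355), and Myog and Rrad had medians of 0. In 10m NMJ Ncam1 led with 58.8 TPM, then Gadd45a (24.2), Rrad (13.9), Hdac4 (9.28), Dach2 (2.14), Runx1 (1.95), Myog (1.57) and Hdac9 (0.799). In that group the ranges of Ncam1 and Gadd45a did not overlap, nor did those of Hdac4 and Dach2, and all other neighbors overlapped. At 30 months xNMJ kept Gadd45a (42.4 TPM), Hdac4 (8.36), Dach2 (4.54) and Ncam1 (1.98) in front, ahead of Runx1 (1.81), Hdac9 (0.897), Rrad (0.244) and Myog (0.123), with overlap between all neighbors. Without replicate 5, Runx1 (2.40 TPM) stood before Ncam1 (1.09 TPM) and Rrad was at 0. In 30m NMJ the order was Ncam1 (60.9 TPM), Gadd45a (36.9), Rrad (13.2), Hdac4 (12.8), Runx1 (3.70), Myog (2.56), Dach2 (2.31) and Hdac9 (1.87), and only Hdac4 and Runx1 were neighbors without overlap.

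The first comparison asked which of these genes differ between the junction and the rest of the fiber in adult muscle. In 10m NMJ against 10m xNMJ, 4 of the 8 genes were higher and 1 was lower at an adjusted p under 0.05 (edgeR quasi-likelihood test, Benjamini-Hochberg adjustment over all 13990 genes tested). Over all genes tested, 6.5% were called higher, 5.05% lower and 11.5% in either direction. At an unadjusted p under 0.05 the same 4 were higher, against 12.6% of all genes, and 6 of 8 log2 fold changes were above 0, against 50.2%. The log2 fold change of Rrad was 6.35 (standard error 1.27, adjusted p = 0.0007), that of Ncam1 4.44 (0.43, adjusted p = 5.11e-09), that of Myog 3.02 (0.99, adjusted p = 0.042) and that of Runx1 2.29 (0.69, adjusted p = 0.023). Dach2, the repressor of Myog, was lower, at -2.12 (0.63, adjusted p = 0.022). Ncam1 and Rrad did not overlap between the regions, a property that 2.22% of all genes tested showed in the higher direction. Hdac4 (0.11, 95% confidence interval -0.49 to 0.72), Hdac9 (0.46, -1.31 to 2.24) and Gadd45a (-0.41, -1.14 to 0.32) did not pass the test. The call of Myog was lost when any of 11 libraries was left out, namely 10m xNMJ replicates 1, 2, 3, 4, 5, 7 and 8 and 10m NMJ replicates 1, 2, 3 and 5, with adjusted p between 0.051 and 0.102, and without 10m xNMJ replicate 6 its log2 fold change was 5.06. Runx1 gave an adjusted p of 0.0506 without 10m NMJ replicate 1 and 0.0563 without replicate 7, and Dach2 gave -1.88 (adjusted p = 0.054) without 10m xNMJ replicate 5. The log2 fold change of Rrad ran from 5.63 to 7.80 when 1 library was left out. With the insert size as a covariate, Myog (adjusted p = 0.080) and Dach2 (0.056) missed the threshold.

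At 30 months the same comparison called 2 of the 8 genes higher, against 5% of all genes tested, and none lower, against 4.25%, with 9.26% called in either direction. At an unadjusted p under 0.05 the same 2 were higher, against 11.3%, and 4 of 8 log2 fold changes were above 0, against 49.3%. Ncam1 was at 3.61 on the log2 scale (standard error 0.41, adjusted p = 1.99e-07), and no library of one region overlapped the other, as for 1.96% of all genes tested. Without replicate 5 of 30m xNMJ its log2 fold change was 4.08. Myog had 3.33 (0.97, adjusted p = 0.023), which was 3.54 (adjusted p = 0.024) without that library and 2.79 (adjusted p = 0.070) without 30m NMJ replicate 6, the library with 14.7 CPM. Dach2 was at -1.70 (0.62, adjusted p = 0.085), and DESeq2 gave an adjusted p of 0.032. Rrad (0.46, 95% confidence interval -1.48 to 2.41) and Runx1 (0.25, -1.05 to 1.55), called at 10 months, did not pass here. Rrad did pass with limma on log2(TPM + 1), at 2.02 (adjusted p = 0.032), a setting that called 3501 of 13990 genes higher and 60 lower. With insert size as a covariate Rrad was at 1.31 (adjusted p = 0.64). In edgeR its value ran from 0.27 to 1.54 when 1 library was left out, and was 2.75 (adjusted p = 0.12) with a replicate block. The difference between the ages in the region effect, taken as an interaction, was -5.88 for Rrad (standard error 1.54, unadjusted p = 0.0006, adjusted p = 0.50) and -2.03 for Runx1 (0.93, unadjusted p = 0.035, adjusted p = 0.93). On log2(TPM + 1) with limma the interaction was -1.68 for Rrad and -0.48 for Runx1 (adjusted p = 0.996 for both). For both genes it thus missed the threshold. None of the 8 had a higher interaction at an unadjusted p under 0.05, against 2.18% of all genes, while 2 of 8, Rrad and Runx1, had a lower one. Interactions were above 0 for 2 of 8, against 48.9%. No interaction passed for the other 6 genes either, nor for any of the 13990 genes in edgeR (percent called, 0), of which 708 had an unadjusted p under 0.05, while DESeq2 called 10 genes but none of the 8.

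With age in xNMJ regions the 8 genes did not pass the edgeR test, although most leaned upward. In 30m xNMJ against 10m xNMJ, 0 of 8 were called, against 0.0429% of all genes (0.0357% higher and 0.00715% lower), and DESeq2 called 2 of 8, Rrad (log2 fold change 5.13, adjusted p = 0.012) and Runx1 (2.62, adjusted p = 0.014), against 0.365% of all genes called higher by it. In edgeR, Rrad was at 4.92 (standard error 1.22, adjusted p = 0.14), Runx1 at 2.62 (0.70, adjusted p = 0.19), Gadd45a at 0.96 (0.36, adjusted p = 0.38) and Hdac4 at 0.65 (0.30, adjusted p = 0.48). On log2(TPM + 1), a scale that understates the change of low genes, limma gave 1.37 for Rrad (adjusted p = 0.81) and 0.96 for Runx1 (adjusted p = 0.73). In edgeR the 4 genes had an unadjusted p under 0.05 in the higher direction, as did 5.18% of all genes tested. Hdac9 (1.52, 0.89), Ncam1 (0.72, 0.39) and Myog (0.70, 1.0) were also above 0 and Dach2 (-0.28, 0.61) was below. The sign was positive for 7 of 8 members, against 53.2% of all genes tested, and the median log2 fold change of the members was 0.84, against 0.04 over all genes. Without replicate 5, Rrad was at 5.10 (adjusted p = 0.10), Runx1 at 2.73 (0.15), Gadd45a at 1.09 (0.25), Hdac4 at 0.74 (0.37), Hdac9 at 1.64 (0.55), Myog at 0.50 (0.91), Ncam1 at 0.25 (0.87) and Dach2 at -0.28 (0.92). Leaving it out thus moved Ncam1 most and called none of the 8. Other single libraries also set values that were not called. Myog was at 0.080 without 30m xNMJ replicate 7 and at 2.74 without 10m xNMJ replicate 6, Hdac9 was at 0.72 without 30m xNMJ replicate 2, and Hdac4 was at 0.35 without 30m xNMJ replicate 3. In 4 of the 8 30m xNMJ libraries Rrad had no count, so its fold change rests mainly on replicates 1, 3 and 7.

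Within NMJ regions age changed none of the 8 genes at the threshold. In 30m NMJ against 10m NMJ edgeR called 0 of 13990 genes (0%), as did DESeq2, with 372 genes at an unadjusted p under 0.05 in edgeR. None of the 8 was higher at that p, against 1.36% of all genes, and 6 of 8 log2 fold changes were above 0, against 52.1%. Myog was at a log2 fold change of 1.01 (95% confidence interval -0.75 to 2.77), Gadd45a at 0.63 (-0.10 to 1.37), Runx1 at 0.59 (-0.71 to 1.89) and Hdac4 at 0.39 (-0.21 to 0.99). Hdac9 (0.31), Dach2 (0.14), Ncam1 (-0.11, -0.85 to 0.63) and Rrad (-0.96, -2.90 to 0.98) completed the list. The intervals of Hdac4, Gadd45a and Ncam1 were the narrowest of the 8, and that of Rrad reached the furthest below 0.

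**Figure D2:**
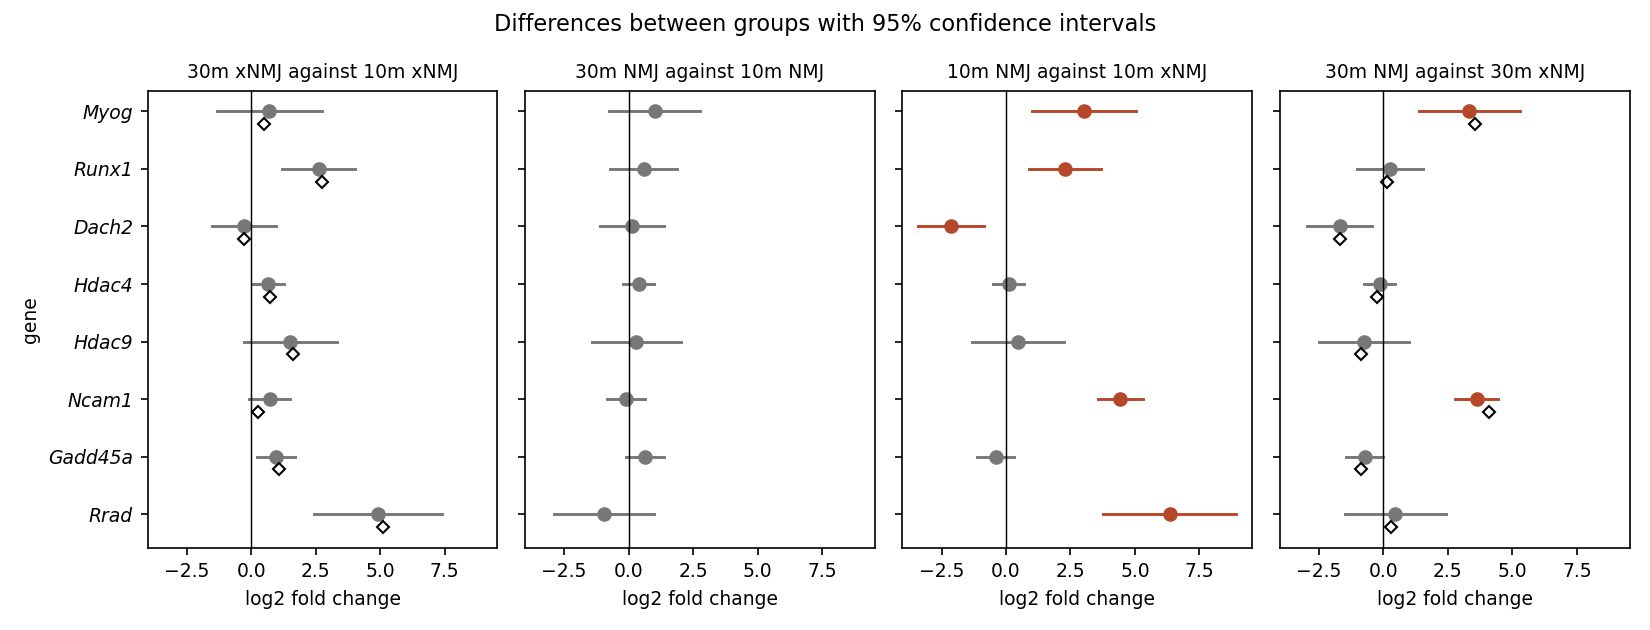
Log2 fold changes of the 8 genes in 4 comparisons (edgeR, 8 libraries per group), with 95% confidence intervals as lines; red marks an adjusted p under 0.05, and open diamonds are the values without 30m xNMJ replicate 5. Region differences pass for 5 genes at 10 months and 2 at 30 months, and no age difference passes.

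Whether the genes rose together was then examined library by library. A member was counted as raised in a 30m xNMJ library when its log2 CPM lay above all 8 10m xNMJ libraries. Replicate 3 had 5 raised members (Runx1, Gadd45a, Hdac4, Ncam1 and Rrad), replicate 1 had 4 (Runx1, Gadd45a, Hdac4 and Rrad) and replicate 7 had 4 (Runx1, Gadd45a, Ncam1 and Rrad). Of all genes tested, 11.1%, 11.9% and 13.2% were raised in these libraries. Replicate 6 had 3 raised members (Runx1, Hdac4 and Hdac9, background 10.9%) and replicate 5 had 2 (Runx1 and Ncam1, background 13.9%). Replicates 2 and 4 had 1 each, which was Hdac9 in both (backgrounds 15.1% and 10.9%), and replicate 8 had none (9.68%). The members were thus raised unevenly, several at a time in some libraries and nearly none in others. In sum 20 of 64 values (31.2%) were raised, against 12.1% over all genes, and 18 of 56 without replicate 5. Runx1 was raised in 5 libraries, Gadd45a, Hdac4, Hdac9, Ncam1 and Rrad in 3 each, and Myog and Dach2 in none.

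Several synaptic transcripts were highest in replicate 5. It had Chrne, Etv5 and Prkar1a far above the others. Of the regulators, Ncam1 was also highest there (23.7 CPM), Myog ranked 2 of 8 (0.797 CPM) and Gadd45a ranked 8 (17.8 CPM). Dach2, Hdac9 and Hdac4 ranked 4, 5 and 6. Runx1 was at 4.96 CPM, below the group's median of 8.31 CPM. Rrad was at 0.885 CPM, above the group's median of 0.443 CPM but below replicates 1, 3 and 7. Lrp4 held 718 of the 1439 CPM summed over the 9 synaptic fiber genes in replicate 5, and was the most abundant of them in every xNMJ library. Without Lrp4, a choice made after seeing the data, the others summed to 721 CPM in replicate 5, and to 55.7, 43.0 and 33.6 CPM in replicates 1, 3 and 7, within the 10m xNMJ range of 50.5 to 152 CPM or below it. NMJ libraries held at least 1883 CPM by the same sum. Replicates 1, 3 and 7 had totals of 7103735, 7469544 and 4801876 counts and insert sizes of 79, 109 and 92, and the part of depth and insert size was not tested. Immune markers are given because blood cells also make Runx1. Ptprc, the leukocyte antigen CD45, was at 7.19, 0.547 and 2.64 CPM in replicates 1, 3 and 7 and at 23.7 CPM in replicate 5. The macrophage marker Adgre1 was at 0 in all 8 libraries. The immune markers did not move alike. Cd52 was at 0, 24.4 and 0 CPM in replicates 1, 3 and 7 and at 29.2 CPM in replicate 5. Itgam was at 1.64, 5.47 and 3.60 CPM in replicates 1, 3 and 7 and at 0.266 CPM in replicate 5. In replicates 3 and 7 Itgam lay above every 10m xNMJ library. Summed over the 8 immune markers, the libraries held 16.0, 90.1, 40.6, 12.8, 94.8, 16.6, 10.3 and 8.25 CPM from replicate 1 to 8, with Tyrobp the most abundant gene over the series. The 10m xNMJ libraries held between 5.37 and 54.7 CPM, and the part of immune cells in the Runx1 levels was not tested.

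**Figure D3:**
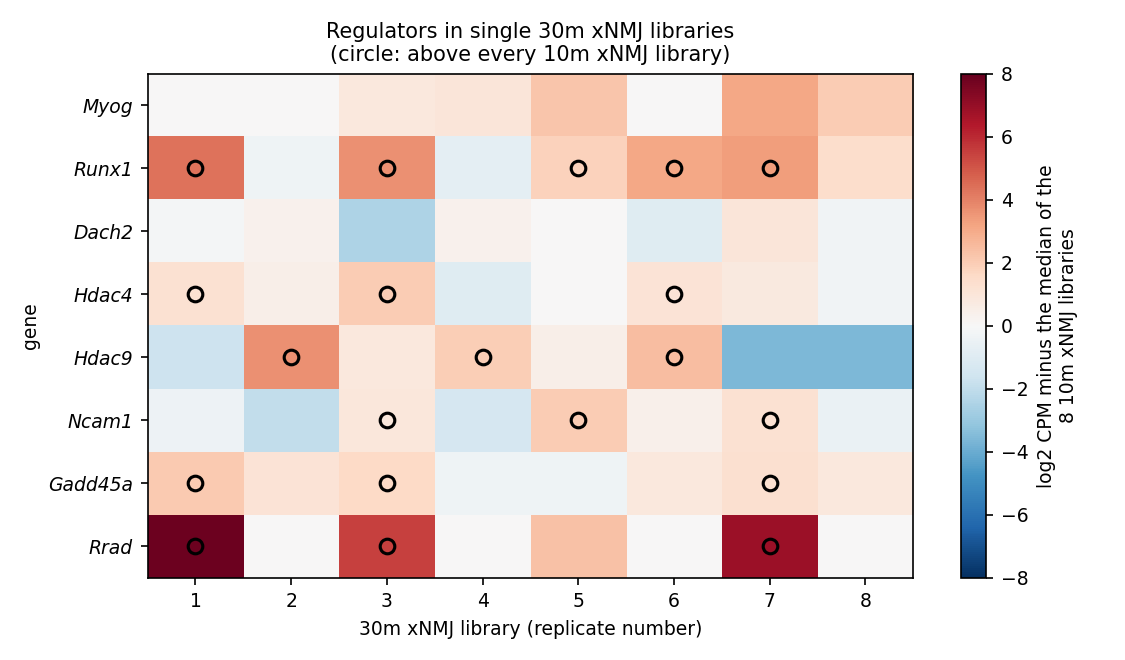
Log2 CPM of each gene (rows) in each 30m xNMJ library (columns) minus the median of the 8 10m xNMJ libraries; circles mark values above every 10m xNMJ library. Replicates 3, 1 and 7 carry 5, 4 and 4 circles and replicate 8 carries none.

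**Figure D4:**
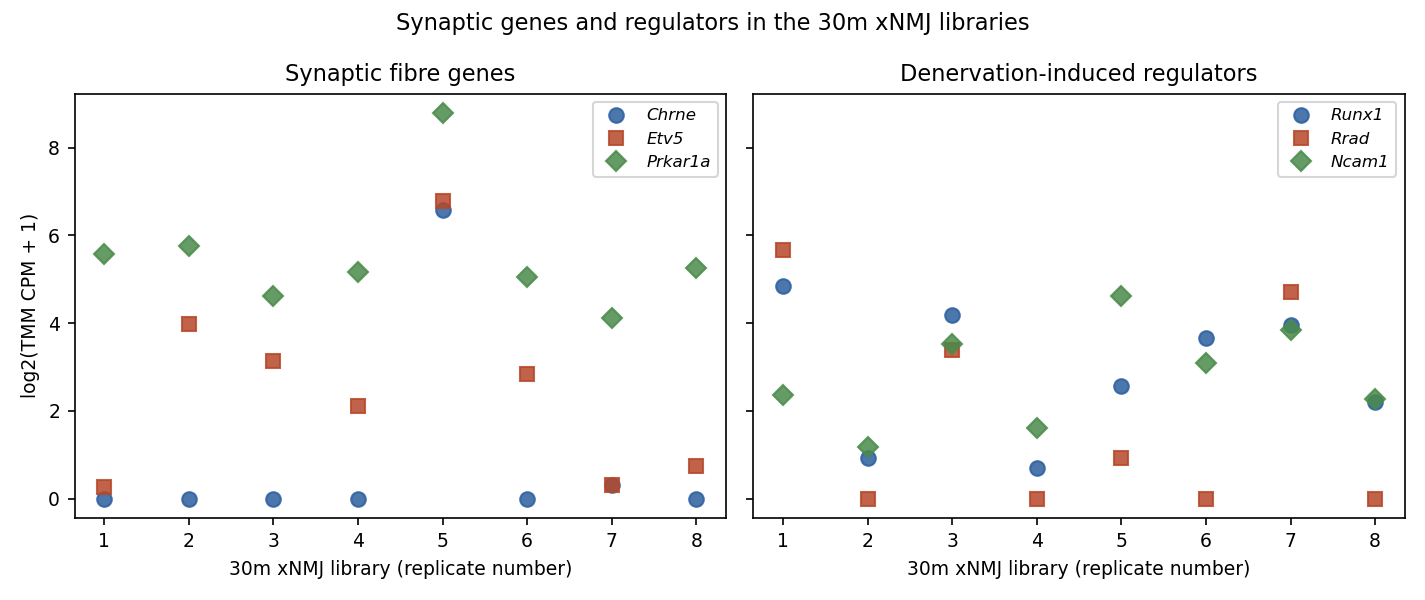
Levels as log2(CPM + 1) of 3 synaptic genes (left) and 3 regulators (right) in the 8 30m xNMJ libraries, 1 point per gene and library. Chrne, Etv5, Prkar1a and Ncam1 peak in replicate 5, where Runx1 is at 4.96 CPM, while Rrad is high in replicates 1, 3 and 7.

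Correlations of log2 CPM over the 8 libraries of 30m xNMJ gave no pair past the threshold. Of 28 pairs, 14 were positive with a median r of -0.03, and 3 had an unadjusted p under 0.05 by exact permutation of Pearson's r, with a lowest adjusted p of 0.29. Without replicate 5 the number under 0.05 was 7, with 15 positive pairs, a median r of 0.05 and a lowest adjusted p of 0.18. Of these 7, Myog with Hdac9 was negative (r = -0.75, exact permutation p = 0.049, adjusted p = 0.20). Runx1 with Rrad and Gadd45a with Rrad were also among them. Runx1 and Hdac4 had r = 0.78 (exact permutation p = 0.022, adjusted p = 0.29) and Spearman's rho = 0.88 (exact p = 0.0072, adjusted p = 0.14), and r was 0.85 without the 2 libraries farthest from the median of Runx1. Gadd45a and Hdac4 had r = 0.78 (exact p = 0.024, adjusted p = 0.29) and rho = 0.83 (exact p = 0.015, adjusted p = 0.14), with r = 0.61 without the 2 farthest libraries. Runx1 and Gadd45a had r = 0.67 (exact p = 0.071, adjusted p = 0.34), which was 0.79 (exact p = 0.018, adjusted p = 0.18) without replicate 5. None of these held after adjustment. With replicate 5 kept, the remaining pair under 0.05 was Runx1 with Rrad. No r with Rrad within 30m xNMJ is given because its values fell into separate sets, 4 libraries at 0 and the rest above. Over the 8 libraries of 10m xNMJ, Runx1 and Hdac4 had r = 0.07 (exact p = 0.86), Gadd45a and Hdac4 -0.05 (exact p = 0.90) and Runx1 and Gadd45a 0.28 (exact p = 0.51). Whether these differ from the values at 30 months was not tested.

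Other genes of the denervation response were looked at as a list of 24, of which 22 were tested. It holds acetylcholine receptor subunits, the kinase Musk, atrophy ligases and stress genes. In 30m xNMJ against 10m xNMJ 0 of 22 passed, against 0.0429% of all genes tested, 17 were above 0, against 53.2%, and the median log2 fold change was 0.50, against 0.04 over all genes. Without replicate 5 the median was 0.41. Among single 30m xNMJ libraries, replicate 5 had the most raised genes of this list, 9 of 22, including the receptor subunits Chrna1 and Chrnd. Replicate 1 had 8, replicates 3 and 7 had 6 each, replicates 4 and 8 had 4 each, replicate 6 had 3 and replicate 2 had 2, or 42 of 176 values (23.9%) against 12.1% over all genes. Eda2r, the ectodysplasin A2 receptor and chosen here after its values were seen, was raised in all but replicate 2, and its log2 fold change was 1.87 (standard error 0.47, adjusted p = 0.15) with replicate 5 and 1.86 (adjusted p = 0.15) without it. Sln, which encodes the calcium pump inhibitor sarcolipin and was also chosen afterwards, had 3.06 (1.05, adjusted p = 0.33) in xNMJ and 3.17 (1.02, adjusted p = 0.9998) in NMJ regions. Chrnd had 3.36 (0.92, adjusted p = 0.21) with replicate 5 and 1.71 without it. In 30m NMJ against 10m NMJ 0 of 22 passed, against 0% of all genes tested, and 14 were above 0, against 52.1%.

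Between regions most of this list did not pass. At 10 months 6 of 22 were higher in NMJ and 2 lower, against 6.5% and 5.05% of all genes tested, and Chrna1 (log2 fold change 4.47), Chrnd (8.64), Musk (3.45), which encodes the agrin co-receptor kinase, and Gdnf (6.23), a growth factor for motor neurons, were among those that rose. At 30 months 5 were higher, against 5% of all genes tested, again with Chrna1 (3.94), Chrnd (5.15), Musk (3.18) and Gdnf (4.44), and 1 was lower, against 4.25%. Without 30m xNMJ replicate 5 these were 4.86, 6.79, 3.10 and 5.95, and none was lower. The lower one was the protease gene Ctsl (-0.75, adjusted p = 0.045), whose call was lost when any of 12 libraries was left out, namely replicates 1, 2, 3, 5 and 7 of 30m xNMJ, 1, 2, 3, 4 and 8 of 30m NMJ and 5 and 7 of 10m NMJ (adjusted p = 0.069 without 30m xNMJ replicate 5). At 10 months the lower ones, named here after their values were seen, were the ubiquitin ligase gene Fbxo32 (-1.05, adjusted p = 0.0071) and Myh8, the perinatal myosin (-0.77, adjusted p = 0.0037). On log2(TPM + 1) with limma neither passed (adjusted p = 0.14 for Fbxo32 and 0.15 for Myh8). Chrng, the fetal receptor subunit and a classic mark of denervation, also named afterwards, did not pass at 10 months (2.33, adjusted p = 0.15) or at 30 months (2.66, adjusted p = 0.10). Its median was 0.0891 CPM for 10m xNMJ, 1.45 CPM for 10m NMJ, 0.103 CPM for 30m xNMJ and 1.84 CPM for 30m NMJ.

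The 14 relatives and partners of the repressors, namely other class IIa deacetylases, MEF2 and CaMKII genes and their cofactors, mostly did not pass the test. With age 0 of 14 passed in either region, against 0.0429% of all genes tested in xNMJ and 0% in NMJ. Between regions Hdac7 was higher in NMJ at both ages (log2 fold change 1.91 with adjusted p = 0.0003, then 1.57 with 0.0031). That is 1 of 14 higher at each age, against 6.5% of all genes tested at 10 months and 5% at 30 months. Mef2c was the most abundant gene of the list in every library. In single 30m xNMJ libraries 19 of 112 values (17.0%) of this list were raised, against 12.1% over all genes.

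Markers of other cells moved with the region and stand here beside the 4 regulators that were higher in NMJ. In bulk samples such as these, fewer cells of a type and less RNA per cell cannot be told apart. For the counts that follow, 6.5% of all genes tested were higher and 5.05% lower in NMJ at 10 months, and 5% and 4.25% at 30 months. Of 8 Schwann cell markers 7 were higher in NMJ at each age, with summed levels between 234 and 348 CPM in 10m NMJ against 9.15 to 30.8 CPM in 10m xNMJ, and between 196 and 277 CPM in 30m NMJ against 5.78 to 39.8 CPM in 30m xNMJ, where replicate 5 was highest. Fibroblast markers were higher for 5 of 6 at 10 months and 4 of 6 at 30 months, and Dcn was the most abundant of them over the series. Immune markers were higher for 3 of 8 and 2 of 8, and the stem cell marker Sdc4 was higher at both ages, 1 of 6 tested, while Pax7, which defines these cells, was low, with a median of 0.578 CPM for 10m xNMJ, 1.19 CPM for 10m NMJ and 0.681 CPM for 30m NMJ. In 30m xNMJ it was at 3.63 CPM in replicate 5, and the other 7 libraries ran from 0 to 2.55 CPM with a median of 0.206 CPM. Of 5 endothelial markers, 0 passed at 10 months and Cdh5 was lower in NMJ at 30 months. Muscle fiber markers were lower in NMJ for 5 of 8 at both ages. The part of these cells in the levels of Ncam1, Runx1, Rrad and Myog was not tested.

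Of the same marker lists, none passed with age in xNMJ, against 0.0429% of all genes tested. The median log2 fold change over all genes was 0.04. The median log2 fold change of the 8 immune markers was 0.79, and 0.01 without replicate 5, and that of the 8 Schwann cell markers was -0.07, and -0.63 without it. Of the 9 synaptic fiber genes, Etv5 passed (4.61, adjusted p = 0.031), 1 of 9 against 0.0357% of all genes tested called higher. Its call was lost without 30m xNMJ replicate 5 (2.67, adjusted p = 0.10) or replicate 2 (adjusted p = 0.057) and without any of 10m xNMJ replicates 1 to 6 (adjusted p between 0.057 and 0.086). Between regions 6 of the 9 were higher in NMJ and Lrp4 was lower, at both ages. Of all genes tested 6.5% were higher and 5.05% lower at 10 months, and 5% and 4.25% at 30 months.

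Over all 32 libraries each regulator was set beside the other genes tested by Pearson's r of log2 CPM, and the 3 nearest are named. These values are descriptions, since all genes share the 4 groups, the depth and the scaling. Ncam1 ran closest to Ptn (r = 0.96), the growth factor pleiotrophin, and to Calcrl and Nkd2, and with the group means removed r with Ptn was 0.64. Myog was nearest to Pdzrn4 (0.82, or 0.52 with group means removed), Plpp3 and Gm12688. Dach2 was nearest to Aqp4 (0.79, or 0.56), the water channel of fast fibers, and to Padi2 and Mn1. Rrad and Runx1 shared their nearest gene, Cpne2, with r = 0.81 for Rrad (0.69 with group means removed) and 0.72 for Runx1 (0.57). Csmd1 and Sh3d19 followed for Rrad, and Aif1l and Eda2r for Runx1. For Gadd45a the nearest were Wdr31 (0.69), Rpl13a and Fau, for Hdac4 Rbbp4 (0.65), Tekt1 and Rfwd3, and for Hdac9 Ptpn2 (0.68), Echdc3 and Gramd1a.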

How the data were processed

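RNA from 32 laser-captured samples had been amplified with a SMART-Seq v4 kit and sequenced. The authors trimmed reads with Cutadapt 1.9.1 and assigned them with kallisto 0.43.1 to protein-coding transcripts of GRCm38 (Ensembl 92), per their methods and processing notes. The authors deposited raw counts, as whole numbers for each gene. They also deposited TPM, scaled by transcript length and library total.

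Counts were compared with edgeR 4.0.16 (TMM, quasi-likelihood test, the 4 groups in one fit) for the 13990 genes with at least 1 CPM in at least 8 libraries, two-sided, with Benjamini-Hochberg adjustment over all genes and a threshold of 0.05. Standard errors were derived from the F statistic. Printed CPM are relative to the library total after TMM scaling; log2 CPM used a prior count of 2. A floor of 3 counts lay between 0.153 and 0.933 CPM, and covers counting error only. TPM served for levels between genes. Correlations were tested over all 40320 pairings. Promoters came from RefSeq on GRCm38.p6 and positions from GENCODE M21.

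The members and gene lists were chosen with earlier results of these data known. Named were all members, up to 4 genes per list and comparison with the smallest p among those called, the synaptic genes of 30m xNMJ replicate 5, and the 3 nearest genes of each member. Replicate numbers occur in both regions, and whether equal numbers share a mouse cannot be told. Of 16 equally numbered pairs of an age, 5 deviated together (r over 0.1). In 8 of 16 cases the best match had the same number. The main fit assumed no pairing. Alternatives were DESeq2 1.42.0, edgeR with DESeq2 size factors, no low-count filter, only the compared groups, insert size as a covariate, limma 3.58.1 on log2(TPM + 1), a replicate block, and leaving out each library. The summed level without Lrp4 was added after seeing the data. The fits were checked on simulated data. Results for a few list genes are not reported here.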

Additional observations from a re-analysis of the deposited data

How the results depend on the processing

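The fold changes of the 8 regulators were computed under 6 settings besides leaving out single libraries, and under the replicate block for the region differences. Values below are log2 fold changes or numbers of genes.

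Counts of called genes moved most with the method. For 30m xNMJ against 10m xNMJ, 6 genes were called (5 higher, 1 lower), 84 with DESeq2 (51 and 33), 2 with insert size as a covariate, and 0 when only the compared groups were fitted or with limma on log2(TPM + 1). For 30m NMJ against 10m NMJ limma called 3 genes in place of 0, and for the interaction DESeq2 called 10 in place of 0. Between regions limma called 2918 genes at 10 months (2681 higher and 237 lower in NMJ), against 1615 (909 and 706), and 3561 at 30 months (3501 and 60), against 1295 (700 and 595). There the median of all genes was higher by 0.37 and 0.51, with the unit, the pseudocount and the test all changed at once, and the cause was not tested. Of the regulators DESeq2 called 2 with age in xNMJ in place of 0, and insert size left 3 in place of 5 for the regions at 10 months.

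Directions turned only for values that were not called. On log2(TPM + 1), Gadd45a was 0.069 between the regions at 10 months, Hdac4 was 0.66 and Hdac9 0.28 at 30 months, and the interaction of Hdac4 was 0.20. With the replicate block Hdac4 was 0.060 and Hdac9 0.64 between the regions at 30 months, and the interaction of Myog was -0.72. The block called 1032 genes higher and 797 lower at 10 months and 870 and 661 at 30 months, and the same 5 and 2 regulators as without it. Of the 22 other denervation-response genes it called 8 higher and 3 lower at 30 months, against 5 and 1. Each library was set beside the 8 of the other region at its age. In 8 of 16 cases it correlated best with the one of its own number, and in the other 8 it did not. That is a hint of pairing from the data and not from the design. With the block Rrad was 2.75 (adjusted p = 0.12) between the regions at 30 months, against 0.46 without it, and its interaction was -3.78, against -5.88.

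Leaving out 1 library at a time gave between 0 and 7 genes for 30m xNMJ against 10m xNMJ (0 without replicate 2, 3 or 5 of 10m xNMJ or replicate 2 of 30m xNMJ, 1 without 10m xNMJ replicate 4, 2 without 10m xNMJ replicate 1, and 3 without 10m xNMJ replicate 6 or 30m xNMJ replicate 5), 0 and 1 for the interaction, 3 and 5 regulators between regions at 10 months, and 1 and 2 at 30 months. It turned Dach2 (-0.079 to 0.41) between the NMJ groups, Hdac9 (-0.17 to 0.87) between regions at 10 months, Hdac4 (-0.29 to 0.16) and Hdac9 (-0.95 to 0.046) at 30 months, and the interactions of Hdac4 (-0.45 to 0.043) and Myog (-1.73 to 0.93). The number of raised values, 20 of 64, was 18 without 30m xNMJ replicate 5. Genes near the floor, such as Myog in xNMJ, are limited by depth.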
